A study of Mus musculus with 10 samples.

Results

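Antioxidant mRNAs of the peroxiredoxin and thioredoxin systems were followed in P19 cells after depletion of Larp1. These are 10 genes that were chosen by name: Prdx1, Prdx2, Prdx4, Prdx5, Prdx6, Txn1, Gpx1, Gpx4, Sod1 and Park7. All 10 were found among the 13272 genes with a kept read, and together they held 14235 of 2042110 kept reads, which is 0.697%. They are short and abundant mRNAs outside the class that carries a 5′-terminal oligopyrimidine (TOP) motif. P19 is a mouse embryonal carcinoma line with stem cell properties. Undifferentiated P19 cells received an siRNA against Larp1 (siLarp1) or a pool of scrambled siRNAs (siCtl), and their polyadenylated RNA was sequenced as native molecules. Each treatment had 3 libraries at 24 h and 2 at 48 h. The 48 h cells were transfected a second time 24 h after the first transfection, so time and the second transfection cannot be told apart. All groups are the same unmodified line, and 1 siRNA was used against Larp1. The libraries are called by the numbers 19, 21 and 22 (24 h) and 24 and 25 (48 h) of the deposited table.

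Cells that respire produce superoxide and hydrogen peroxide. Superoxide dismutases turn the former into the latter, and peroxiredoxins and glutathione peroxidases reduce peroxides at the cost of thiols, which thioredoxin or glutathione restore. Larp1 is an RNA-binding protein that binds the cap and the TOP motif of mRNAs for ribosomal proteins and protects their poly(A) tails from shortening. The comparison below addresses whether abundant housekeeping mRNAs that are not TOP mRNAs changed in number or in tail length when Larp1 was lowered.

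Depth was between 112720 and 423398 kept reads per library. At 24 h every siLarp1 library was shallower than every siCtl library, and siCtl and siLarp1 libraries were never pooled together, which means that treatment and pool cannot be told apart at that time. At 48 h both treatments were pooled together. At 24 h the target Larp1 was at 81.7 ± 5.04 reads per 1000000 kept reads (RPM, SD, n = 3) in control cells and at 32.4 ± 12.9 RPM (SD, n = 3) in siLarp1 cells. At 48 h it was at 145.8 ± 32.1 RPM (SD, n = 2) and 21.7 ± 4.51 RPM (SD, n = 2), without overlap between the treatments at either time. In the limma voom fit its log2 fold change over both times was −1.94 (SE 0.36, Benjamini-Hochberg adjusted p = 0.00113). At 24 h alone it was −1.33 (SE 0.41, limma adjusted p = 0.63). At 48 h alone it was −2.56 (SE 0.59, limma adjusted p = 0.087). Neither passed the threshold, from 13 Larp1 reads in siLarp1 libraries at 24 h and 6 at 48 h. Tests at a single time can thus miss a drop of this size in a gene with so few reads. Of the pluripotency markers, Pou5f1 was at 2277 to 3028 RPM in every library, Dppa5a was at 0 to 11.2 RPM, and the summed level of 7 such markers lay between 3050 and 4098 RPM. The endoderm markers Gata4, Gata6 and Sox17 had at most 1 read in any group. The summed level of 4 neuronal markers ran from 26.6 to 87.1 RPM; nearly all of it was Tubb3 (group means of 32.9 to 56.6 RPM), with at most 2 reads of Dcx and of Map2 in any group and 0 reads of Neurod1. In RNA from a whole culture, fewer expressing cells and less RNA per cell cannot be told apart.

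The 3′ ends of the antioxidant mRNAs show where their tails begin. Each read starts at the poly(A) tail, so the last aligned base was taken as the end of the RNA. The most frequent read end was taken as the position with the most ends within 5 nt on either side. The most frequent single base can thus lie up to 5 nt away. In all 10 main transcripts the 30 bases before the most frequent read end held a polyadenylation signal, AATAAA or ATTAAA, read on the transcript strand only. Such a signal was found in 85.8% of 2500 transcripts with at least 100 reads and in 95.6% of 160 transcripts of ribosomal protein genes. The windows with a signal are shown for mRNAs that ended at more than 1 site and for 4 with 1 site, from GENCODE transcripts of mouse build GRCm38. The last letter is the most frequent end in this sense and need not be the exact last base of the RNA. Capitals mark the signal.
Prdx1, end at 982 nt: ttttttaagtatctATTAAAcgtgaattct
Prdx1, end at 1467 nt: taatctgccaggaATTAAAagtgtgtgcca
Prdx6, end at 948 nt: ctactgggtcATTAAAtggaaatggcacca
Prdx6, end at 1490 nt: ggttcaacaAATAAAatcctgatcagaaaa
Prdx2, end at 979 nt: ataggaaaccAATAAAgtattagggacagt
Prdx2, end at 1476 nt: acattggatgggAATAAAaactaaagtcaa
Txn1, end at 662 nt: atgacAATAAAatattaattctaccctttt
Gpx1, end at 1066 nt: tttcactactaagAATAAAgtgctgaatat
Gpx4, end at 954 nt: ctggctgccttgtgggAATAAAatgtagaa
Sod1, end at 636 nt: taccctcaaaccATTAAActgtaatctgaa

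All of these windows lie within a single exon at the 3′ side of their genes. The Prdx1 windows are at chr4:116699481-116699510 and chr4:116699966-116699995 on the plus strand. Those of Prdx6 are at chr1:161241551-161241580 for the shorter and chr1:161241009-161241038 for the longer RNA, on the minus strand. Prdx2 ended at chr8:84974284-84974313 and chr8:84974781-84974810 on the plus strand. The window of Txn1 is at chr4:57943762-57943791 (minus strand), that of Gpx1 at chr9:108340308-108340337 (plus), that of Gpx4 at chr10:80056405-80056434 (plus) and that of Sod1 at chr16:90226295-90226324 (plus).

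Prdx1, Prdx2, Prdx6 and Txn1 ended well inside their annotated transcripts. The annotated Prdx1 transcript is 2294 nt long, and 86.2% of its 4374 reads ended within 25 nt of position 982. A further 7.43% (325 reads) ended near 945, where the 30 bases before the end held neither signal. Whether 945 is a separate end of the RNA was not tested. Another 5.53% ended near 1467, past a second signal. Prdx2 is annotated at 1500 nt, and 92.9% of the reads on its main transcript ended near 979. Txn1 is annotated at 1051 nt, with 99.2% of reads near 662. Gpx1, Gpx4, Sod1, Park7, Prdx4 and Prdx5 had between 97.8% and 99.4% of reads at 1 end, within 6 nt of the annotated end. The most frequent ends thus lay short of the annotated end of the main transcript for 4 members, and over all members they lay between 636 and 1490 nt. Ends on other annotated transcripts of the same genes were not compared.

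The 5′ ends were searched for a pyrimidine run, since TOP mRNAs carry one at their very 5′ end. Direct RNA reads stop short of the cap, so the 20 bases upstream of the most frequent read start and that base itself were searched. The search was for at least 7 C or T in a row, on the transcript strand only. Starts were counted within 3 nt on either side of a position. This run was found in 16.3% of the 2500 transcripts and in 60% of the ribosomal protein transcripts. Among the antioxidant mRNAs 2 of 10 held one, Prdx1 and Sod1. They are shown with Prdx2, whose longest run was 6, and Prdx6, whose longest was 3. Capitals mark runs of at least 7.
Prdx1, 5′ window: gcgctgtcgggcgaCCTCTTC
Sod1, 5′ window: TTTTTTTgcg
Prdx2, 5′ window: ctctcggttttgagatctctt
Prdx6, 5′ window: gcccgctgctcactgctgcgg

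These windows are at chr4:116685591-116685611 (plus strand) for Prdx1, chr16:90220754-90220763 (plus) for Sod1, where the annotated start cut the window to 10 bases, chr8:84969689-84969709 (plus) for Prdx2 and chr1:161251153-161251173 (minus) for Prdx6. Reads of Gpx1, Gpx4 and Txn1 began most often at positions 237, 185 and 132 of their annotated transcripts, so their windows may lie apart from the true start. A run inside a window need not lie at the cap, so a match does not make an mRNA a TOP mRNA. A match is a description of these letters and was not tested as a binding site.

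Prdx1 was the most abundant antioxidant mRNA. A read is 1 RNA molecule, so RPM is compared between genes without division by length. Over the 10 libraries Prdx1, a cytosolic peroxiredoxin of the typical 2-Cys type, was at 2096 ± 289 RPM (SD, n = 10), above 98.2% of the 5858 genes with at least 30 reads. It was higher than the next member, Sod1, in 10 of 10 libraries. Sod1, the copper and zinc superoxide dismutase, was at 1106 ± 82.5 RPM (SD, n = 10) and had the smallest spread relative to its level. Txn1, the cytosolic thioredoxin that recycles peroxiredoxins, was at 916 ± 157 RPM (SD, n = 10), below Sod1 in 8 of 10 libraries.

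The middle of the order was held by Prdx6, Gpx4 and Prdx2. Prdx6, the 1-Cys peroxiredoxin that relies on glutathione, was at 732 ± 131 RPM (SD, n = 10). Gpx4, the selenoprotein that reduces lipid peroxides in membranes, was at 672 ± 106 RPM (SD, n = 10). Prdx2, the close relative of Prdx1 that is best known from red blood cells, was at 593 ± 65.7 RPM (SD, n = 10). The order of neighbours within this trio held in 7 of 10 libraries for each pair, within the spread between libraries, and Prdx6 was above Prdx2 in 9 of 10 libraries.

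A gap separated these from the remaining members. Prdx2 was above Prdx4 in 10 of 10 libraries. Prdx4, the peroxiredoxin of the endoplasmic reticulum, was at 222 ± 36.8 RPM (SD, n = 10), and Gpx1, the main cytosolic glutathione peroxidase, at 214 ± 48.2 RPM (SD, n = 10). The order of Prdx4 and Gpx1 held in 5 of 10 libraries. Park7, which encodes the redox-sensitive protein DJ-1, was at 179 ± 53.5 RPM (SD, n = 10), and Prdx5, the atypical 2-Cys enzyme of mitochondria and peroxisomes, was the lowest at 129 ± 19.5 RPM (SD, n = 10), still above 81.3% of genes. Over all 45 pairs of members, 34 had the same order of RPM in every library.

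**Figure D1:**
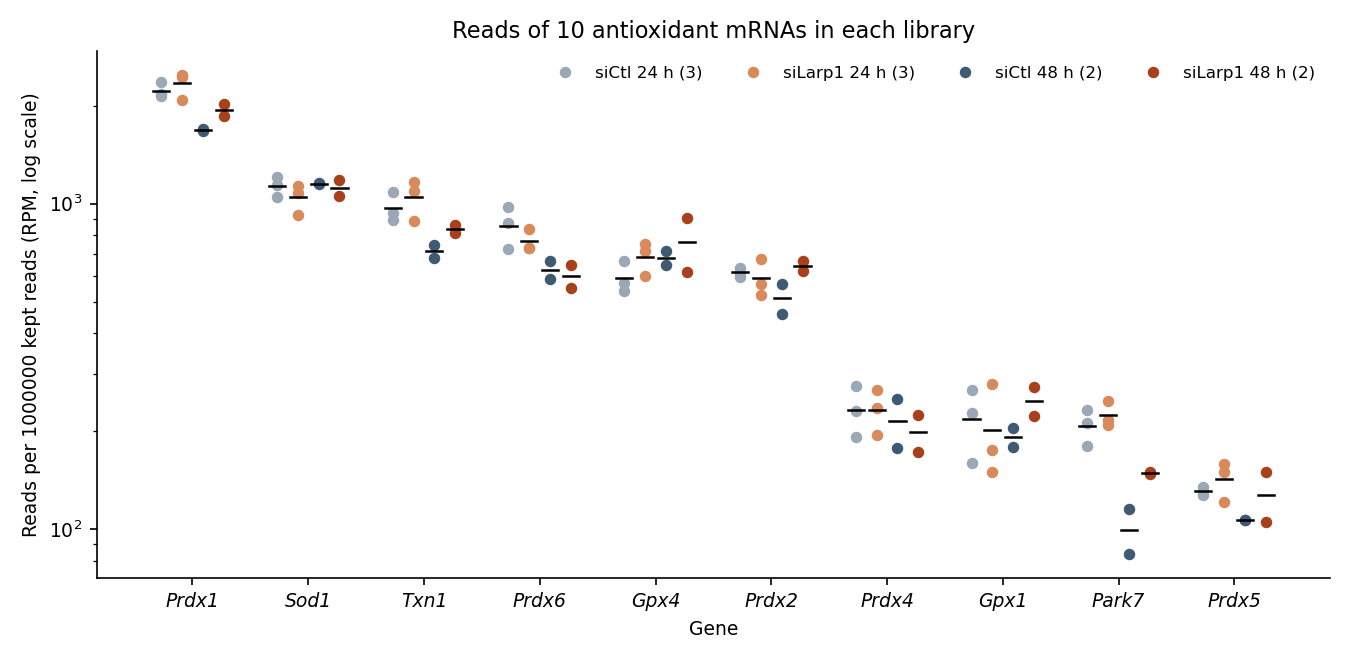
Reads per 1000000 kept reads (RPM) of the 10 antioxidant mRNAs (log scale) in each of the 10 libraries, ordered by mean level. Points are libraries coloured by group and black bars are group means. Prdx1 lies above the others in every library, and a gap separates Prdx2 from Prdx4.

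None of the 10 mRNAs changed in abundance past the threshold. In the limma voom fit over all 5858 genes, 0 members passed an adjusted p of 0.05 at 24 h, at 48 h or over both times (adjusted p between 0.80 and 0.99). The target Larp1 itself passed over both times only. The share of all genes that passed was 0% at 24 h, 0.0341% at 48 h and 0.154% over both times, so calls were rare everywhere. With the library number as a replicate block these counts rose to 17, 13 and 28 genes, again without a member. At an unadjusted p under 0.05 there were 0 members at 24 h, 1 at 48 h (Prdx2) and 1 over both times (Prdx1), against 341, 289 and 362 of all genes. The median log2 fold change of the members was 0.05 at 24 h and 0.20 at 48 h, beside 0.02 and 0.05 over all genes.

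Prdx1 is the member with the most reads, and its interval is the narrowest. At 24 h it was at 2171, 2141 and 2357 RPM in siCtl and at 2453, 2086 and 2490 RPM in siLarp1 libraries, and the groups overlapped. At 48 h it was at 1677 and 1701 RPM in siCtl and at 2030 and 1858 RPM in siLarp1 libraries. Both siLarp1 libraries at 48 h were above both siCtl libraries. The log2 fold change was 0.07 (SE 0.07, 95% interval −0.08 to 0.21) at 24 h and 0.21 (SE 0.12, −0.03 to 0.44) at 48 h, where it was 0.14 without the siLarp1 library 24. Over both times it was 0.14 (SE 0.07, adjusted p = 0.80).

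At 48 h the siLarp1 libraries lay above the siCtl libraries for 5 of the 10 members, and below them for none. These were Prdx1, Prdx2, Txn1, Gpx1 and Park7. Of all 5858 genes, 33.1% had groups without overlap at 48 h in either direction, 1063 of them upward, and 2 against 2 libraries cannot give an exact p below 0.33. Over both times the stratified exact permutation test gave the members p-values of 0.0833 or higher in all 40 tests on 4 measures (Benjamini-Hochberg adjusted p of 0.63 or higher). At 24 h no member was without overlap, beside 11.1% of all genes.

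Park7 and Prdx2 had the largest fitted differences at 48 h. Park7 was at 115 and 83.9 RPM in siCtl and at 148 and 149 RPM in siLarp1 libraries, from 13, 15, 24 and 18 reads. Prdx2 was at 568 and 459 RPM in siCtl and at 666 and 622 RPM in siLarp1 libraries. The siLarp1 libraries were the higher ones for both genes. The log2 fold change of Park7 was 0.63 (SE 0.35, 95% interval −0.07 to 1.32, limma adjusted p = 0.94). That of Prdx2 was 0.37 (SE 0.18, interval 0.00 to 0.73, limma adjusted p = 0.94). Without the siCtl library 25 these values were 0.35 for Park7 and 0.18 for Prdx2, and with reads of a mapping quality of at least 20 the value of Park7 was 1.33.

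Park7, Prdx1, Prdx6 and Txn1 were lower in every library at 48 h than in any library at 24 h. Park7 lay between 179 and 247 RPM in the 6 libraries at 24 h and between 83.9 and 149 RPM in the 4 libraries at 48 h. The lowest value at 24 h and the highest at 48 h were 2086 and 2030 RPM for Prdx1. They were 726 and 665 RPM for Prdx6, and 882 and 863 RPM for Txn1. How many of all genes separated in this way was not counted, so the separation cannot be called particular to these members. Not all members were lower at 48 h. In siCtl libraries Gpx4 was at 592 ± 65.8 RPM (SD, n = 3) at 24 h and at 682 ± 48.5 RPM (SD, n = 2) at 48 h. This comparison of times was not tested, and the times differ in their sequencing pools. In Txn1 the siCtl libraries were at 939, 892 and 1084 RPM at 24 h and at 683 and 744 RPM at 48 h.

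For Gpx4 and Gpx1 the tallies are less certain. Gpx4 reads had a median mapping quality of 15, and 43.2% reached 20, whereas the median was 60 for 7 of the 10 members. A processed copy, Gpx4-ps2, held 368 reads with a usable tail that were left out with the pseudogenes. Gpx4 was at 569, 540 and 666 RPM in siCtl and at 751, 598 and 713 RPM in siLarp1 libraries at 24 h, with overlap. Its log2 fold change at 24 h was 0.20 (SE 0.13) and it was 0.21 with the reads of the copy added, but 0.04 with reads of a mapping quality of at least 20. Over both times it was 0.15 (SE 0.11), and −0.08 with such reads, so that the sign of the Gpx4 difference depended on the reads kept. Gpx1 rested on 20 to 113 reads per library, and its log2 fold change was −0.10 (SE 0.21) at 24 h and 0.36 (SE 0.29) at 48 h (0.23 without the siLarp1 library 25), with limma adjusted p-values of 0.98 and 0.94.

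Prdx6, Sod1, Prdx4, Txn1 and Prdx5 had small differences. Prdx6 was at 973, 726 and 869 RPM in siCtl and at 834, 733 and 732 RPM in siLarp1 libraries at 24 h. Its log2 fold change was −0.15 (SE 0.12) at 24 h (−0.07 if siCtl library 19 is left out, −0.25 if siCtl library 21 is) and −0.07 (SE 0.18) at 48 h. Sod1 had −0.11 (SE 0.10) and −0.03 (SE 0.14), the smallest difference of any member at 48 h. For Prdx4 the 95% interval at 48 h ran from −0.74 to 0.39 and for Prdx5 from −0.50 to 0.89, so that a change of either sign is within the error. Txn1 had 0.10 (SE 0.11) and 0.22 (SE 0.17). None of the differences between the 2 time points passed the test of the interaction (0 of 10 members and 0 of 5858 genes, of which 0 and 255 had an unadjusted p under 0.05).

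Tails were longest on Prdx2 and Prdx1 and shortest on Prdx4, and as a set the members were spread over the range of all genes. The mean of the library medians was 115.5 ± 5.88 nt (SD, n = 10) for Prdx2 and 114.4 ± 5.21 nt (SD, n = 10) for Prdx1, longer than in 88.1% and 86.7% of the 1267 genes with at least 10 reads in every library. Prdx4 had the shortest, at 91.9 ± 13.4 nt (SD, n = 10), and only 12.9% of genes were shorter. Txn1 (107.8 ± 8.93 nt), Gpx1 (107.7 ± 10.3 nt), Park7 (105.8 ± 15.3 nt) and Gpx4 (102.5 ± 8.78 nt) were between them (SD, n = 10 for each). Prdx6 (99.9 ± 6.06 nt), Sod1 (95.9 ± 4.0 nt) and Prdx5 (95.1 ± 17.4 nt) followed (SD, n = 10 for each). Of the 1267 genes, 72.7% were shorter than Txn1, 72.5% than Gpx1, 66.2% than Park7, 53.0% than Gpx4, 42.5% than Prdx6, 27.3% than Sod1 and 23.8% than Prdx5. No neighbours in this order differed in every library, and of all 45 pairs 7 had the same order in all 10 libraries.

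The distribution within each mRNA was wide. In Prdx1 the middle 80% of reads had tails between 59.0 and 178.5 nt, and in Prdx4 between 37.3 and 178.2 nt. Members differed at both ends of the distribution. The 10th percentile ran from 36.9 nt in Prdx5 to 61.5 nt in Prdx2, and the 90th from 156.4 nt in Sod1 to 180.0 nt in Prdx2. Tails over 150 nt made up 24.9% of Prdx2 reads and 12.0% of Sod1 reads.

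**Figure D2:**
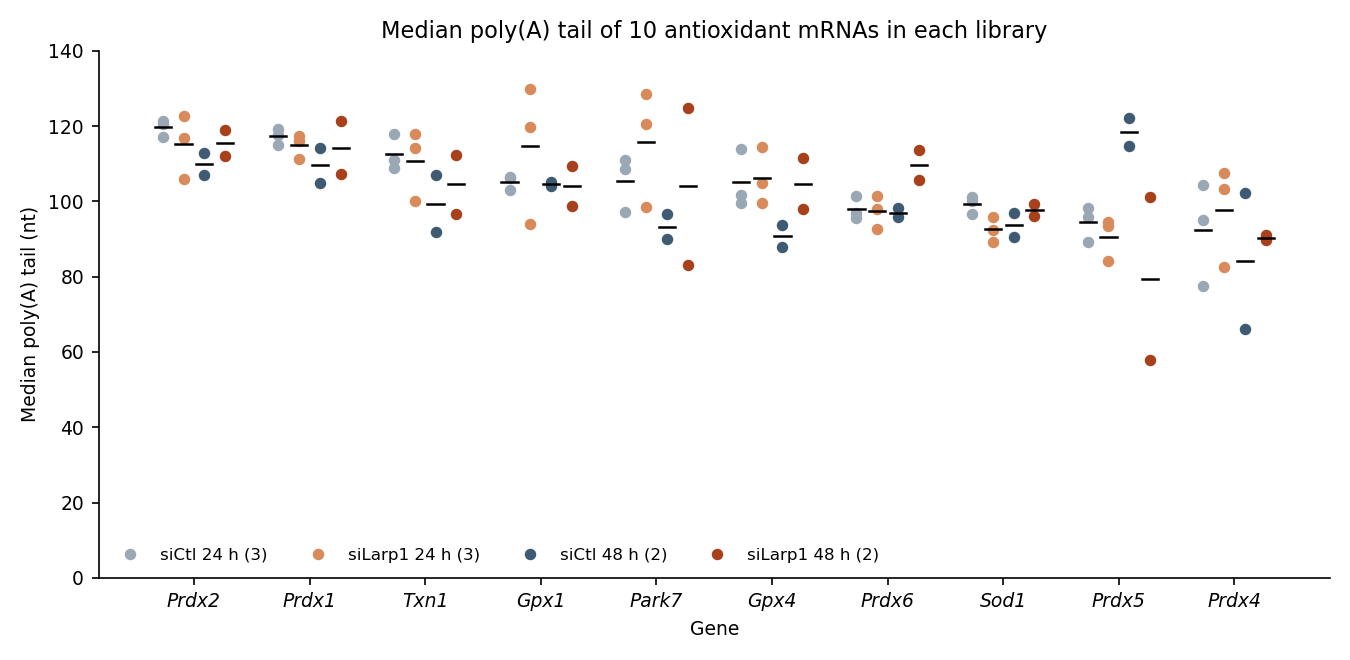
Median poly(A) tail in nt of the 10 antioxidant mRNAs in each of the 10 libraries, ordered by the mean over libraries. Points are libraries coloured by group and black bars are group means. The medians lie between 57.8 and 129.9 nt, with the widest spread in Prdx5, Park7 and Prdx4, which have few reads.

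No member changed its median tail past the threshold. In the limma fit of log2 medians, 0 of 10 members and 0% of the 1267 genes passed at 24 h, at 48 h and over both times. At an unadjusted p under 0.05 there were 66, 121 and 98 genes, among them 0, 1 and 1 members, Prdx5 in both cases. The median log2 ratio of the members was −0.02 at 24 h and 0.07 at 48 h, beside 0.01 and 0.05 over all genes.

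Prdx1 and Txn1 show how close the groups were. The Prdx1 medians at 24 h were 117.6, 115.0 and 119.2 nt in siCtl and 117.4, 111.4 and 116.2 nt in siLarp1 libraries. At 48 h they were 114.3 and 104.8 nt in siCtl and 107.3 and 121.2 nt in siLarp1 libraries. The groups overlapped at both times. The log2 ratio was −0.03 (95% interval −0.19 to 0.14) at 24 h and 0.06 (−0.14 to 0.26) at 48 h. Txn1 medians were 111.0, 118.0 and 108.8 nt in siCtl and 114.0, 100.0 and 118.0 nt in siLarp1 libraries at 24 h, a log2 ratio of −0.03 (95% interval −0.25 to 0.19).

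Prdx5 had the largest difference in median tail, on few reads. At 48 h its medians were 122.2 and 114.7 nt in siCtl libraries, from 12 and 19 reads, and 57.8 and 101.1 nt in siLarp1 libraries, from 17 and 18 reads. Both siLarp1 libraries were lower. The log2 ratio was −0.63 (SE 0.21, 95% interval −1.10 to −0.16) with a limma adjusted p of 0.42. It was −0.23 without the siLarp1 library 24 and −1.03 without the siLarp1 library 25, where the adjusted p was 0.0269 (0.0269 to 0.76 over all alternatives). At 24 h the Prdx5 medians were 95.9, 98.2 and 89.2 nt in siCtl and 84.0, 93.4 and 94.5 nt in siLarp1 libraries, with overlap.

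Sod1 was the member whose medians did not overlap at 24 h. They were 100.2, 96.6 and 101.1 nt in siCtl and 92.5, 89.2 and 95.9 nt in siLarp1 libraries. The two-sided exact permutation p was 0.1, which 3 against 3 libraries cannot go below. All 3 siLarp1 libraries were lower, and the log2 ratio was −0.10 (SE 0.07, limma adjusted p = 0.95). At 48 h they were 90.5 and 97.0 nt in siCtl and 99.4 and 96.1 nt in siLarp1 libraries, with overlap. A single member of 10 is near the 12.9% of all genes without overlap at 24 h.

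At 48 h, 3 members had medians without overlap, beside 34.6% of all genes. Besides Prdx5 these were Prdx6 and Gpx4, both higher in siLarp1 libraries. Prdx6 medians were 98.2 and 95.8 nt in siCtl and 105.7 and 113.6 nt in siLarp1 libraries, a log2 ratio of 0.18 (SE 0.08, limma adjusted p = 0.54). Those of Gpx4 were 87.8 and 93.7 nt in siCtl and 97.8 and 111.4 nt in siLarp1 libraries, a ratio of 0.20 (SE 0.11, limma adjusted p = 0.62), which was 0.11 without the siLarp1 library 25. Prdx2, Prdx4, Gpx1 and Park7 overlapped at both times.

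**Figure D3:**
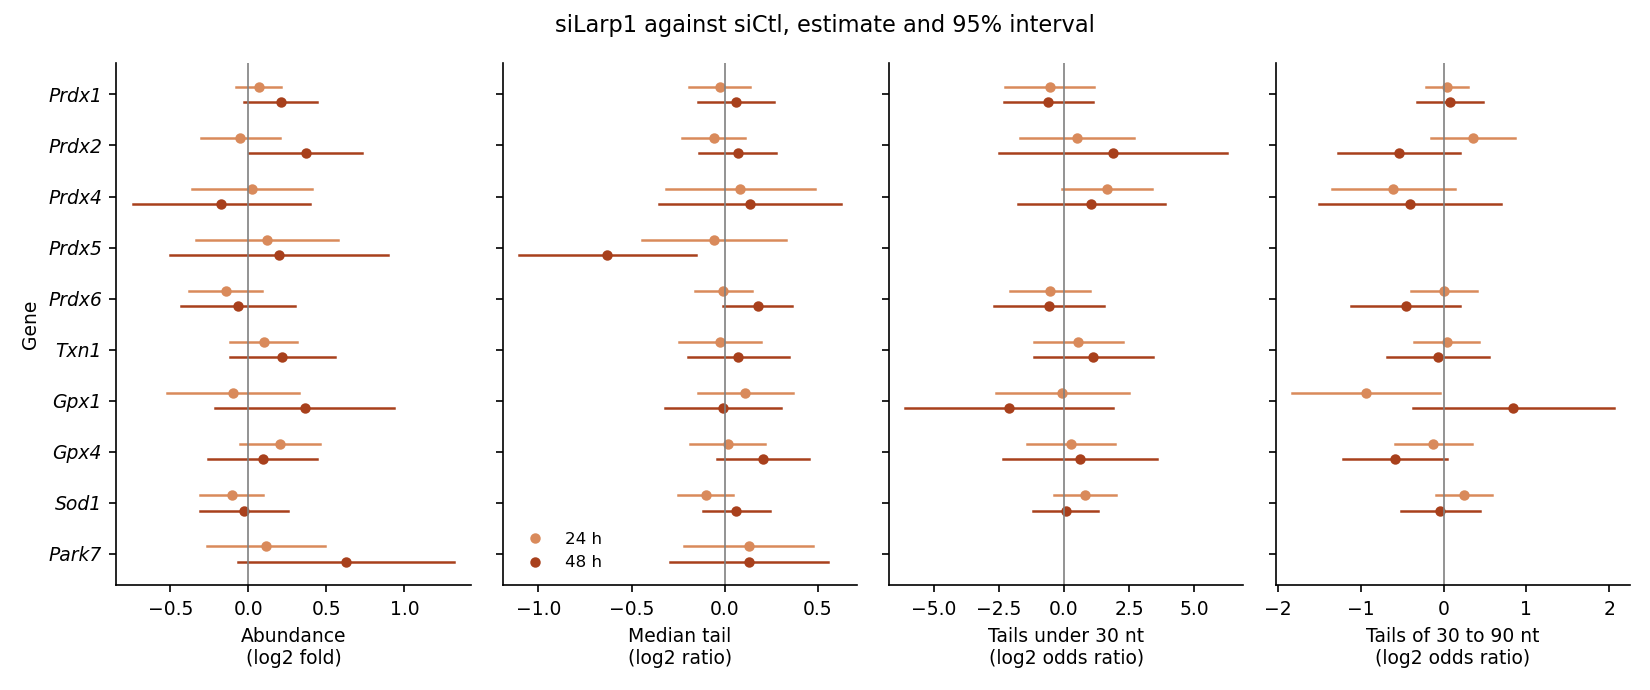
Differences between siLarp1 and siCtl libraries for each antioxidant mRNA on the log2 scale, at 24 h and 48 h, in 4 measures (abundance, median tail, odds of a tail under 30 nt and odds of a tail of 30 to 90 nt). Points are estimates from the fits across all genes and lines are 95% intervals, not adjusted for the number of genes; Prdx5 and Park7 have no values in the last 2 panels because they had under 100 reads at 48 h.

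Tails under 30 nt, too short to hold more than a single poly(A)-binding protein, were rare on the antioxidant mRNAs. RNA standards with encoded tails of 16 and 32 nt were read at medians of 28.1 nt (61 reads) and 34.5 nt (105 reads). Lengths near the limit of 30 nt are therefore approximate. Over all libraries they made up 0.571% of Prdx2 reads (7 of 1225, exact 95% binomial interval 0.23% to 1.17%) and 0.617% of Prdx1 reads (27 of 4374, interval 0.407% to 0.897%). The highest shares were 4.94% in Prdx5 (13 of 263, interval 2.66% to 8.30%) and 4.59% in Prdx4 (21 of 458, interval 2.86% to 6.92%). Prdx1 and Prdx2 thus had fewer such tails than Prdx4 and Prdx5, with intervals that did not meet. The other members lay between 1.06% (Gpx4) and 2.14% (Sod1). Such intervals cover counting error only.

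No member rose or fell in its share of tails under 30 nt past the threshold. The quasi-binomial fit covered 841 genes with at least 100 reads at each time, among them 8 members, since Prdx5 and Park7 had 66 and 70 reads at 48 h. Of these 8 members 0 passed at 24 h, at 48 h or over both times. The share of all tested genes that passed was 1.07%, 0.119% and 4.28%, in each case upward, and with a replicate block it was 0, 0 and 25 genes. Of the 82 ribosomal protein genes tested, 9, 1 and 32 passed. At an unadjusted p under 0.05 there were 0 members each time, beside 87, 52 and 97 of the 841 genes. The median log2 odds ratio over both times was 0.44 for the members, 0.31 for all genes and 0.83 for the ribosomal protein genes. No test of the members against the ribosomal protein genes was made.

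Shares pooled over the 10 members were also compared between libraries. Prdx1 weighs most in this pool, with 4374 of 14235 member reads and a share of only 0.617%. The pool therefore does not show what each member did. In siCtl libraries at 24 h, 1.01%, 1.24% and 1.03% of the reads of all 10 members had a tail under 30 nt, and in siLarp1 libraries 1.58%, 1.90% and 0.902%. At 48 h the shares were 2.81% and 1.40% in siCtl and 2.46% and 1.60% in siLarp1 libraries. The members' groups overlapped at both times. Those of the ribosomal protein mRNAs were 1.68% to 1.88% in siCtl against 2.98% to 3.19% in siLarp1 libraries at 24 h, and 2.31% and 2.77% against 4.54% and 4.2% at 48 h, without overlap at either time. Shares over all kept reads did not overlap either, at 2.15% to 2.42% against 2.63% to 3.22% at 24 h, and 2.82% and 2.96% against 4.2% and 3.37% at 48 h. The members' shares rested on 11 to 33 short tails per library, and those of the ribosomal protein mRNAs on 907 to 2409.

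**Figure D4:**
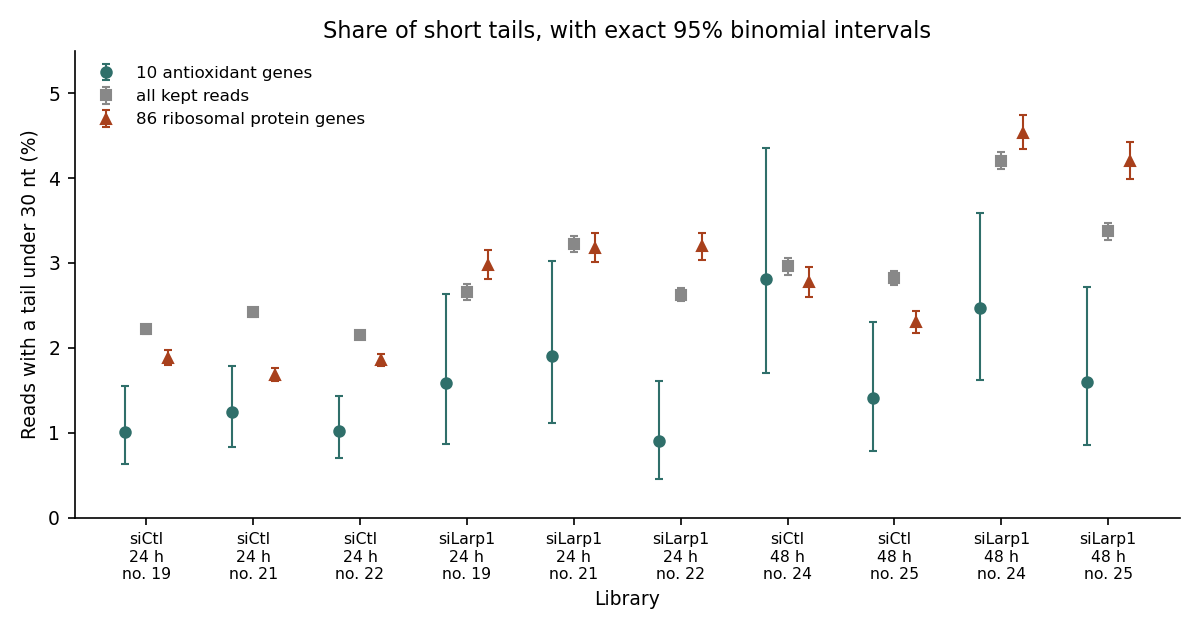
Share of reads with a tail under 30 nt, in percent, in each of the 10 libraries for the 10 antioxidant genes together, all kept reads and 86 ribosomal protein genes. Bars are exact 95% binomial intervals, which cover counting error only. The antioxidant mRNAs lie between 0.902% and 2.81% with treatments that overlap, while the ribosomal protein mRNAs and all kept reads are higher in every siLarp1 than in every siCtl library of the same time.

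Prdx4 had the largest log2 odds ratio at 24 h. Its siCtl libraries held 1 of 67, 5 of 95 and 0 of 81 reads with such a tail, and its siLarp1 libraries 1 of 32, 6 of 26 and 2 of 37. The groups overlapped, and 6 of the 9 short tails in siLarp1 libraries came from library 21, where the siCtl library also had its highest share. The log2 odds ratio was 1.66 (SE 0.81, 95% interval −0.07 to 3.38, limma-moderated adjusted p = 0.51) and it was 0.64 without the siLarp1 library 21. It was 2.59 without the siCtl library 21.

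Sod1, with the most short tails of any member (49 of 2287 reads), gave a narrower bound than Prdx4. It had 15 short tails among 1200 siCtl reads and 10 among 433 siLarp1 reads at 24 h, and 12 of 335 and 12 of 319 at 48 h. The log2 odds ratios were 0.80 (95% interval −0.39 to 1.99) and 0.07 (−1.17 to 1.31). Prdx1 had negative estimates at both times, with 12 of 2364 against 3 of 964 reads at 24 h and 7 of 493 against 5 of 553 at 48 h, and the interval over both times was −1.79 to 0.64. In Prdx1 and Prdx6 the siLarp1 libraries at 48 h were below both siCtl libraries. These are 2 of 8 members, beside 36.3% of all tested genes without overlap at 48 h, and at 24 h there were 0 members beside 14.5%.

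Where no short tail was seen, the depth sets the limit. Prdx2 had 0 of 146 reads in siCtl libraries at 48 h, which allows a share of up to 2.05% (3 reads). Gpx1 had 0 of 69 reads in siLarp1 libraries at 48 h, which allows up to 4.35%. Park7 had 0 of 28 and 0 of 42 reads at 48 h, which allows up to 10.7% and 7.14%. In Txn1 the siLarp1 library 24 held 8 of 132 such tails and the siLarp1 library 25 held 0 of 104. The siCtl library 24 held 3 of 77 and the siCtl library 25 held 0 of 133, so that all such Txn1 tails at 48 h came from the libraries numbered 24.

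Tails of 30 to 90 nt made up between 27.3% of reads in Prdx2 and 45.2% in Prdx4. In this class 0 of 8 members passed at 24 h, 48 h or over both times, beside 0.713%, 0% and 0.95% of 842 genes. With a replicate block 14 in place of 8 genes passed over both times, and again no member. Members without overlap were 3 of 8 at 24 h (Prdx2 upward, Prdx4 and Gpx1 downward), beside 15.3% of all genes, and 2 of 8 at 48 h (Prdx6 and Gpx4, both downward), beside 38.4%.

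Gpx1 had the largest difference in this class at 24 h. Its siCtl libraries held 25 of 66, 19 of 55 and 37 of 113 reads in the class, and its siLarp1 libraries 2 of 21, 6 of 20 and 10 of 44. Every siLarp1 library was below every siCtl library. The log2 odds ratio was −0.94 (SE 0.45, 95% interval −1.83 to −0.05, limma-moderated adjusted p = 0.53). At 48 h it had the other sign, 0.84 (SE 0.61), with 3 of 23 and 10 of 32 reads in siCtl and 15 of 36 and 10 of 33 in siLarp1 libraries, and it was 0.31 without the siCtl library 24. The test of the difference between the times gave 1.79 with an adjusted p of 0.67.

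Prdx6 allowed tails to be compared between 2 ends of 1 mRNA. The ends lie at 948 and 1490 nt, and 18.8% and 79.1% of the reads on its main transcript ended there. Among reads at either end the shorter one took 14.4%, 23.4% and 22.1% in siCtl and 20.4%, 23.7% and 24.8% in siLarp1 libraries at 24 h. At 48 h it took 13.9% and 14.3% in siCtl and 14.8% and 12.2% in siLarp1 libraries. The treatments overlapped at both times (exact permutation tests, two-sided, p = 0.5 and p = 1).

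Tail length did not differ between the 2 ends beyond the spread. The mean of the library medians was 99.9 ± 15.3 nt (SD, n = 10) at the shorter and 99.4 ± 9.44 nt (SD, n = 10) at the longer end of Prdx6, a difference of 0.535 ± 22.2 nt (SD, n = 10, exact sign permutation test within libraries, two-sided, p = 0.955). Short tails were 2 of 283 and 26 of 1191. In Prdx1 the reads ending at 982 nt had tails 7.56 ± 18.5 nt longer (SD, n = 10) than the 242 reads ending at 1467 nt, in 6 of 10 libraries (exact sign permutation test, p = 0.248), and 3.14 nt longer without the siLarp1 library 25. All 26 short tails at these ends were at the shorter one, and 0 of 242 at the longer allows a share of up to 1.24%.

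**Figure D5:**
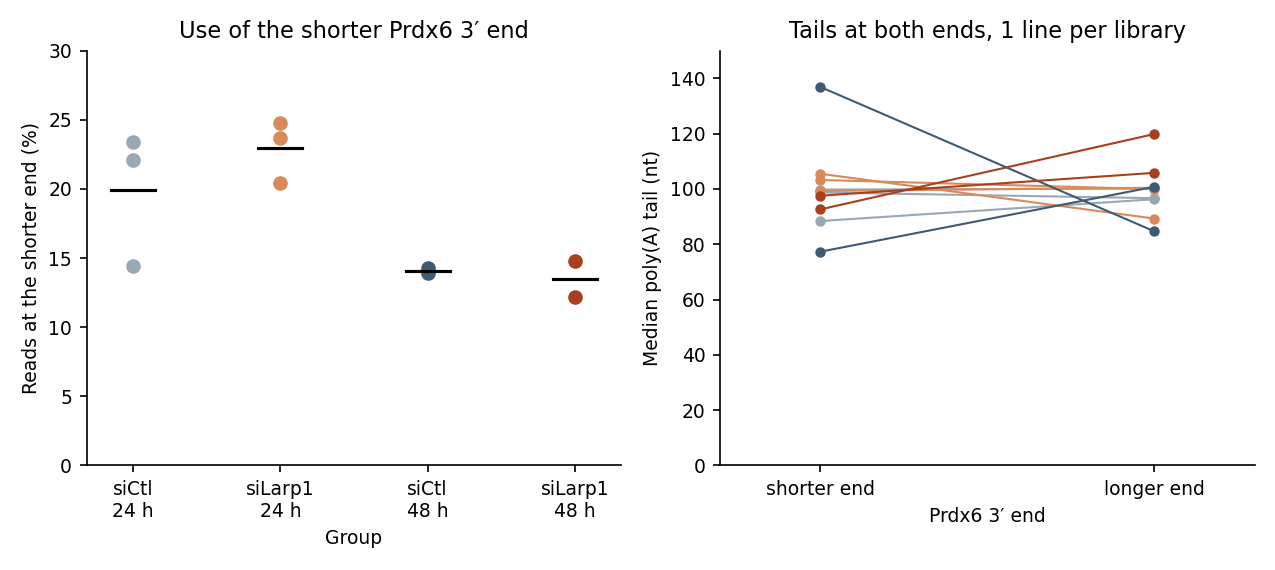
Left, share of Prdx6 reads at the shorter of its 2 ends (percent of reads at either end) in each library, with black bars for group means. Right, median poly(A) tail in nt at the shorter and the longer end, 1 line per library in the colour of its group on the left; the shares lie between 12.2% and 24.8%, and the lines cross with no common direction.

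The wider antioxidant system held no gene that passed either. A list of 62 further genes covered other peroxiredoxins and their partners, the thioredoxin and glutathione systems, superoxide and peroxide removal, small selenoproteins and genes of the Nrf2 pathway. Of these, 60 had a read and 48 were tested for abundance. None of the 48 passed the limma voom test at 24 h, at 48 h or over both times, and 5, 2 and 5 had an unadjusted p under 0.05, beside 341, 289 and 362 of all 5858 genes. The median log2 fold change was 0.07 at 24 h and 0.12 at 48 h. For the share of tails under 30 nt 0 of 10 and for the median tail 0 of 13 tested genes passed at either time, beside the 1.07% and 0.119% of 841 genes at 24 h and 48 h for the former and 0% of 1267 genes for the latter.

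The ferritin subunits were the most abundant genes of this list. Ftl1, the ferritin light chain, was at 2651 ± 299 RPM (SD, n = 10), more than Prdx1, and Fth1, the heavy chain, at 1282 ± 144 RPM (SD, n = 10). Their log2 fold changes at 24 h were 0.14 (SE 0.06, limma adjusted p = 0.81) for Ftl1 and 0.07 (SE 0.10, limma adjusted p = 0.97) for Fth1. Ftl1 also had the smallest adjusted p of the list for tails under 30 nt at 24 h, 0.19, at a log2 odds ratio of 1.91.

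The other genes with the most reads were the copper chaperone Atox1 (333 RPM), the glutathione transferase Gsta4 (322 RPM), the glutaredoxins Glrx3 (303 RPM) and Glrx5 (230 RPM), the selenoproteins Selenof (275 RPM) and Selenoh (218 RPM), and the thioredoxin-like Txnl1 (234 RPM) and Txndc17 (210 RPM). Their log2 fold changes lay between −0.29 (Glrx5) and 0.15 (Atox1) at 24 h and between −0.39 (Glrx5) and 0.26 (Selenoh) at 48 h. Glrx5 was lower in both estimates, with limma adjusted p-values of 0.92 and 0.94.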

How the data were processed

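Poly(A)-selected RNA of 10 P19 libraries was measured by Nanopore direct RNA sequencing. The authors called bases with Guppy, assigned barcodes with Deeplexicon, aligned reads with minimap2 2.20 to mouse transcripts (mm10) and estimated tails with Nanopolish. The deposited table has 1 line per read and aligned sequence: a tail length in nt, a quality tag, a barcode confidence as a fraction and a mapping quality score. Lines of mRNA with the tag PASS were kept, without pseudogenes and mitochondrial transcripts, and are called reads; at most 1.82% of a member's reads had more than 1 alignment. Depth is given as kept reads, and few reads per member limit the precision.

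Reads per gene were tallied from the table. No deposited count table was used. Groups came from the labels, and the library names of the table give treatment and time but not the labelled replicate. Replicates are biological per the study. Abundance was tested with limma 3.58.1 voom (R 4.3.3) for genes with at least 30 reads, scaled to kept reads. Shares of tails under 30 nt and of 30 to 90 nt were fitted with a quasi-binomial model (at least 100 reads at each time, prior of 0.5 reads, dispersion moderated by limma and at least 1). Medians of log2 tails were tested with limma (at least 10 reads in each library). The fits held all 10 libraries in 4 groups, with Benjamini-Hochberg adjustment over all genes at 0.05. Single values were compared by exact two-sided permutation within a time (smallest p of 0.1 and 0.33) or stratified over both times (120 arrangements, smallest p of 0.0167). The fits without a block were run on simulated data for the contrast over both times only. Named genes were the 10 members, Larp1, and of a wider list the 10 genes with most reads and any that passed. The members and lists were chosen with earlier results of these data known. Libraries of the same number and time deviated together over 278 genes with at least 1000 reads (r = 0.183, 0.564 and 0.508 for 19, 21 and 22, and 0.210 at 48 h); the pairing comes from the table's library numbers, and a fit with them as a block was an alternative. Alternatives changed the scaling, the filters, the tail limits, the read selection, the depth, the unit and the libraries. Exact binomial intervals cover 95%, and a tally of 0 allows 3 reads.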

Additional observations from a re-analysis of the deposited data

How the results depend on the processing

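The number of antioxidant mRNAs past the threshold was 0 in each measure and at each time under every alternative other than those given here. With unadjusted p-values it was 1 for abundance at 48 h (Prdx2) and over both times (Prdx1). It was 1 for tails of 30 to 90 nt at 24 h (Gpx1), beside 68 of 842 genes. For the median tail it was 1 at 48 h and over both times (Prdx5). When libraries were left out in turn it ranged from 0 to 1 for the median tail at 48 h and over both times. The 1 was Prdx5 without the siLarp1 library 25, at log2 ratios of −1.03 (limma adjusted p = 0.0269) and −0.55 (limma adjusted p = 0.0418, 0.0418 to 0.81 over its alternatives). In the paired fit, with the library number as a replicate block, 0 members passed in each measure, and it changed no member's call. The Prdx6 tail difference between both ends, which did not pass its test, was reversed at a barcode confidence of at least 0.9 (−0.568 nt), without the siLarp1 library 21 (−1.21 nt) and without the siCtl library 25 (−5.21 nt); left-out libraries gave −5.21 to 3.63 nt. For Prdx1 they gave 3.14 to 10.6 nt. The cause was not tested. The members' single log2 values stayed within 1 SD of the replicates in 2090 of 2151 alternatives. This tally includes values at 1 time refitted without a library of the other time, which barely moves them. It also does not show changes of sign. The Prdx2 median tail over both times, at a log2 ratio of 0.006, changed sign in 9 of 20 alternatives. Adding the reads of Gpx4-ps2 to Gpx4 and the alternatives on read ends were chosen after seeing the data. Precision is limited by depth: 12 to 998 reads per member and library.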
